A study of Mus musculus with 6 samples.

Results

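The genes described here are 48 members of the BMP and TGF-beta signalling pathway, chosen by symbol, with earlier results of these data known. They comprise 17 ligands, 11 receptors, 8 Smads, and 12 antagonists and binding proteins. Every probe whose gene name in the array design equals a member was taken, which gave 62 of the 55681 probes on the array and 48 of its 36163 gene names. The question was how these genes differ between the neonatal basal prostate cells that express GFP from the s-SHIP promoter and those that do not.

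RNA came from prostates of male FVB/N mice, 6 days old and untreated, that carry the Tg 11.5kb-GFP transgene, in which a promoter fragment of s-SHIP drives GFP. Cells without lineage markers that were positive for Sca-1 and CD49f (LSC, the basal and stem cell fraction) were sorted into LSC GFP+ and LSC GFP- cells, with 3 samples of each on 6 single-colour arrays. Both populations carry the transgene, so GFP in the sort reports the promoter and not the genotype. The same promoter also labels vascular smooth muscle cells in this line, which according to the study show little of either sorting marker. The RNA was amplified before labelling, and neither the labels nor the methods used here give the number of mice behind a sample. Values below are log2 signals relative to the 75th percentile of the array, which stands at 0, and a difference is LSC GFP+ minus LSC GFP- on that scale. A probe's level is compared between arrays only, never with the level of another probe.

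BMPs, growth and differentiation factors, activins and TGF-betas are secreted dimers that bring type I and type II receptor kinases together. The type I receptor then phosphorylates receptor Smads, of which Smad1, Smad5 and Smad9 serve the BMP branch and Smad2 and Smad3 the TGF-beta and activin branch, and these enter the nucleus with Smad4. Secreted antagonists such as noggin and follistatin hold ligands away from their receptors, and in the prostate the pathway is known for restraining epithelial growth and ductal branching.

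Bmp5 and Smad9 had the largest differences among the ligands and among the Smads, and their upstream sequences are therefore shown. Both are the 250 bases before the RefSeq gene start in GRCm38.p6, written 5′ to 3′ on the strand of the gene. Bmp5 lies at chr9:75775115-75775364 and Smad9 at chr3:54755332-54755581, each on the plus strand. Capitals mark GTCTG, a Smad-binding element, or GGCGCC, a GC-rich element of BMP Smads, on either strand.
Bmp5: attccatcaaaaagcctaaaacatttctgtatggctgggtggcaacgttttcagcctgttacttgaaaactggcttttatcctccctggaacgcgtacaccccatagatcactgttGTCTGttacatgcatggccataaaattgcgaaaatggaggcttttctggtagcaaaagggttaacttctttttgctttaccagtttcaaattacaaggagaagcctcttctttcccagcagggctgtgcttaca
Smad9: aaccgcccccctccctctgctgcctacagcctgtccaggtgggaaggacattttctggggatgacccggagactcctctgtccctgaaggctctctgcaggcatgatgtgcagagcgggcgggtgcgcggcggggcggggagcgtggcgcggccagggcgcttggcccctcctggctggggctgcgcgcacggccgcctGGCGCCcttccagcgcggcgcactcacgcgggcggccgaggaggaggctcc
The stretch of Bmp5 held 1 GTCTG and had a GC content of 42.8%, and that of Smad9 held 1 GGCGCC and had 73.2%, against a median of 52.4% over all promoters in the table. GTCTG or its reverse CAGAC was present in 42.2% of the 32851 promoters of this length, and GGCGCC, which is its own reverse, in 9.59%. The table matched 36 member genes with 43 promoters, of which 22 held GTCTG and 7 held GGCGCC. A match of letters is a description of the window only. Bmp2, Bmp7, Tgfb3, Fst and Sostdc1 were among the members without an entry.

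The probes behind the largest differences are identified by the first 30 of their 60 bases. The names of Sostdc1 and Bmpr1b appear with both of their probes, because those genes were measured at separate places.
Bmp5: ataaaaagcaggggaatggggaatttccta
Smad9: gtttagcatgtgatgcttaaaacacctgga
Fst: caccaatgttcagtgttgacatagcctttg
Sostdc1, brighter probe: tttttccagtctcagtgtgaaattatcccc
Sostdc1, dimmer probe: tctcaagatgtaatgagtagtttgcagtga
Bmpr1b, brighter probe: atttatggaagcatgtacattgtgaactcc
Bmpr1b, dimmer probe: atcatggctttctgaggaggagaaactgtt
In the array design, which uses mm9, these probes lie at chr9:75746444-75746503 (Bmp5, plus strand), chr3:54605068-54605127 (Smad9, plus strand) and chr13:115243565-115243624 (Fst, minus strand). Those of Sostdc1 lie at chr12:37044532-37044591 and chr12:37044197-37044256, 335 bases apart on the plus strand, and those of Bmpr1b at chr3:141500694-141500753 and chr3:141503374-141503433, 2680 bases apart on the minus strand. None of the probes printed here shared a run of 20 bases with a probe of another gene. Their place in exons or UTRs was not analysed here.

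Of the 48 members, 43 had a probe well above background throughout at least 1 population and were tested with limma. At the study's p threshold, an unadjusted p under 0.05, 4 members rose in LSC GFP+ cells (Bmp2, Bmp5, Bmp7 and Acvr1b) and 8 fell (Gdf10, Gdf15, Tgfb3, Bmpr1b, Smad9, Fst, Fstl1 and Sostdc1). The study's lists of up- and down-regulated genes also required a minimum fold change, which was not applied here. Acvr1b (1.38-fold higher) and Tgfb3 (1.49-fold lower) lie under that minimum. Over all 25566 genes tested, 3.38% rose and 4.29% fell, or 7.67% in either direction, against 27.9% of the tested members. No member passed 0.05 after Benjamini-Hochberg adjustment over all probes, and the adjusted p of these 12 lay between 0.0706 for Bmp5 and 0.580 for Fstl1. Bmp5, Smad9 and Fst entered the test through 1 population only, since they were not well above background on every array of the other. Among the 40 members above background on all 6 arrays, 3 rose and 6 fell, beside 3.45% and 3.86% of genes under the same filter.

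The members did not move one way. The median difference of the 43 tested members was 0.01, beside -0.01 over all genes tested, with 22 differences above 0 and 21 below, while 49% of all genes tested lay above 0. By class the median was -0.09 for the ligands, 0.16 for the receptors, 0.04 for the Smads and -0.41 for the antagonists and binding proteins. The values of the populations did not overlap for 17 members, 7 higher and 10 lower in LSC GFP+ cells, and the same held for 11.9% of all genes tested, 6.5% in the higher and 5.37% in the lower direction. In these sorted bulk samples, fewer cells of a type and less RNA per cell cannot be told apart.

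**Figure D1:**
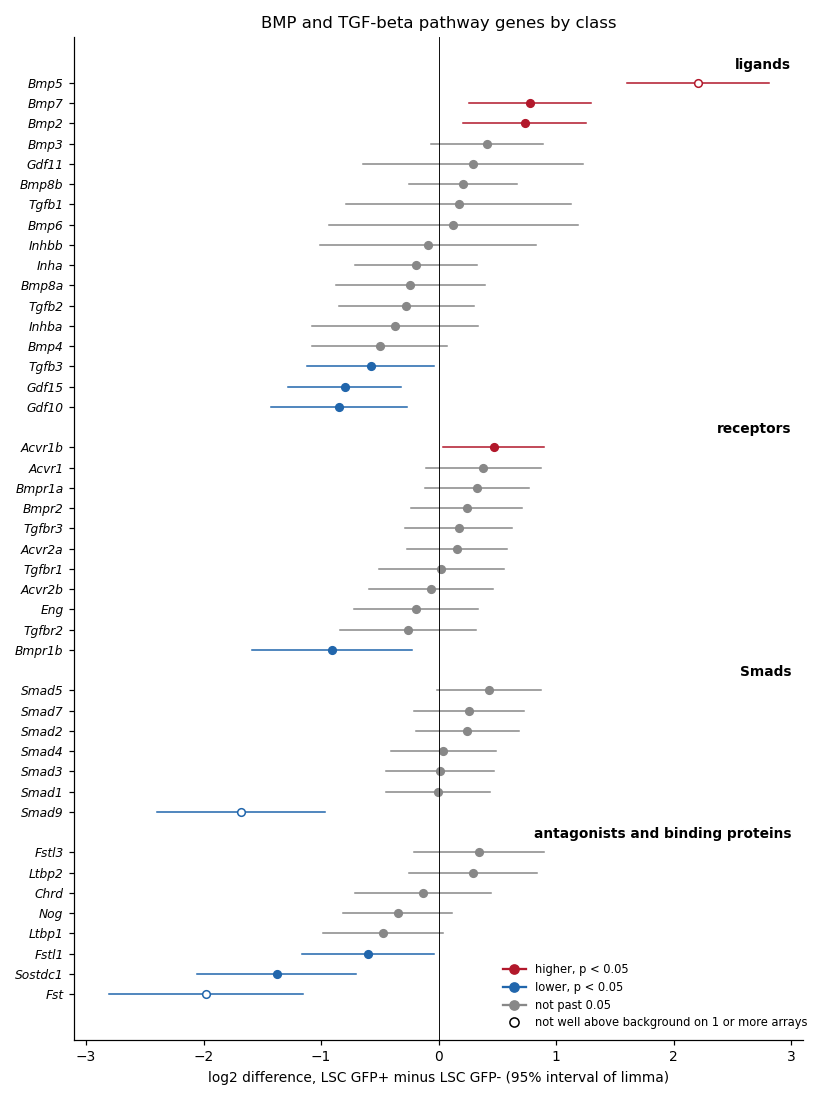
Differences between LSC GFP+ and LSC GFP- cells on the log2 scale (horizontal axis) for the 43 tested members, by class. Points are limma's estimates from 3 arrays per population, lines their 95% intervals, and open points mark Bmp5, Smad9 and Fst, which were not well above background on every array; Bmp5 has the highest difference, 2.20, and Fst the lowest, -1.98.

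Among the ligands, 3 of the BMPs rose, and 2 growth and differentiation factors and Tgfb3 fell. Bmp5, a BMP of the same subfamily as Bmp6 and Bmp7, read -2.22, -1.74 and -1.61 in LSC GFP+ cells, in the order of replicates 1 to 3, and -3.97, -4.44 and -3.78 in LSC GFP- cells. All 3 LSC GFP+ arrays stood far above the LSC GFP- arrays, where the probe was well above background on only 1 of 3. The difference was 2.20 ± 0.26 (SE), or 4.61-fold, with a limma adjusted p of 0.0706. With normexp background correction with an offset of 50, it was 0.92 and still past the unadjusted threshold.

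Bmp7, which signals in branching epithelia, read 0.06, 0.47 and 0.43 in LSC GFP+ cells and -0.61, -0.61 and -0.15 in LSC GFP- cells. Its groups did not overlap, although LSC GFP+ replicate 1 and LSC GFP- replicate 3 came close, and the difference was 0.77 ± 0.22 (SE; adjusted p = 0.332). Bmp2, which binds the same type I receptors as Bmp4, read -0.67, -0.34 and -0.54 against -1.05, -1.08 and -1.61. The lowest array was LSC GFP- replicate 3 and all LSC GFP+ arrays lay above all LSC GFP- arrays, with a difference of 0.73 ± 0.23 (SE; adjusted p = 0.376).

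Gdf10, also known as Bmp3b, read -2.92, -2.84 and -3.06 in LSC GFP+ cells and -1.61, -2.35 and -2.32 in LSC GFP- cells. The LSC GFP+ arrays were close together and LSC GFP- replicate 1 was the highest, and the difference was -0.85 ± 0.25 (SE; adjusted p = 0.338), or -0.51 with normexp. Gdf15, a divergent ligand known as a stress-response cytokine, read -1.69, -1.31 and -1.21 against -0.52, -0.57 and -0.73. Its groups were well apart, with a difference of -0.80 ± 0.21 (SE; adjusted p = 0.262).

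Tgfb3, one of the 3 TGF-beta isoforms, read -1.34, -0.91 and -0.90 in LSC GFP+ cells and -0.32, -0.79 and -0.29 in LSC GFP- cells. LSC GFP- replicate 2 came close to the LSC GFP+ arrays without overlapping them. The difference was -0.58 ± 0.23 (SE; adjusted p = 0.579) and it rests on single arrays. It was no longer past the threshold without replicate 1 (-0.43) or 2 (-0.65) of LSC GFP+ cells or replicate 1 (-0.51) or 3 (-0.49) of LSC GFP- cells, nor with the array median as the scale (-0.51). The other isoforms did not pass, with differences of 0.17 for Tgfb1 and -0.28 for Tgfb2.

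Bmp3, which antagonises other BMPs, did not pass although its groups were apart: it read -0.89, -0.36 and -0.66 in LSC GFP+ cells and -1.02, -1.13 and -1.01 in LSC GFP- cells. The LSC GFP- arrays were nearly level and LSC GFP+ replicate 1 lay just above them, and the difference was 0.41 ± 0.21 (SE; adjusted p = 0.738). Without that array it was 0.54 and past the threshold.

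Bmp4, a major mesenchymal BMP, read 0.03, -0.47 and -0.63 in LSC GFP+ cells and 0.43, -0.03 and 0.03 in LSC GFP- cells. The groups overlapped at LSC GFP+ replicate 1, which lay level with LSC GFP- replicates 2 and 3, while LSC GFP- was the higher in each of the 3 pairs. Its difference of -0.50 ± 0.25 (SE) did not pass in the unpaired fit (adjusted p = 0.731), but passed with the replicate number as a block, at an unadjusted limma p of 0.0154. It also passed without LSC GFP+ replicate 1, where it was -0.70.

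The remaining ligands had differences between -0.37 for the activin subunit Inhba and 0.29 for Gdf11, a ligand of activin type receptors, and none passed. Inhba stood out on 1 array, LSC GFP- replicate 1, at -1.09, while its other values lay between -2.29 and -1.77. Bmp8a and Bmp8b, neighbours in the genome with similar sequences, differed by -0.24 and 0.21, and the subunits Inha and Inhbb by -0.19 and -0.09. The difference of Bmp6 was 0.12.

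**Figure D2:**
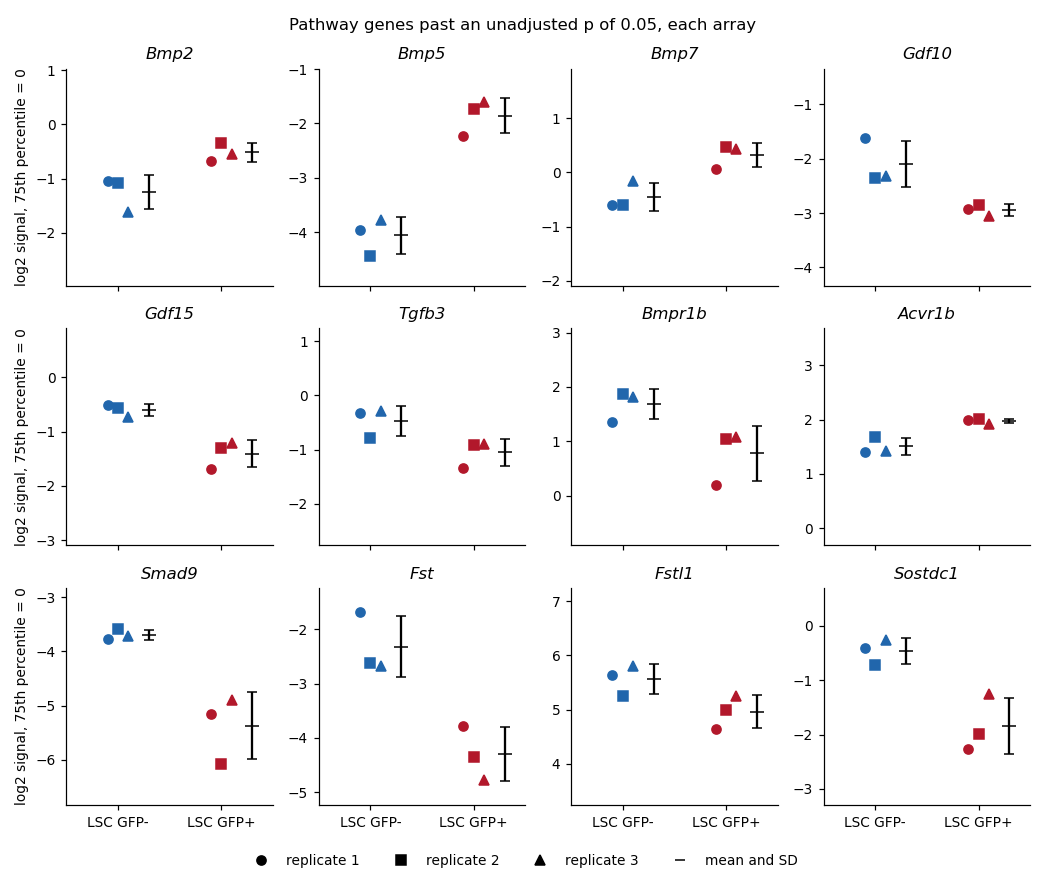
Log2 signal relative to the 75th percentile of the array (vertical axis, each panel spanning 4 log2 units) on every LSC GFP- (blue) and LSC GFP+ (red) array for the 12 members past an unadjusted p of 0.05. Symbols give the replicate number and bars the mean ± SD of 3 arrays; the populations do not overlap in any panel.

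Of the 11 receptors, all of them above background on all 6 arrays, 1 rose and 1 fell. Bmpr1b (Alk6), a type I receptor for BMPs and growth and differentiation factors, read 0.20, 1.05 and 1.09 in LSC GFP+ cells and 1.36, 1.88 and 1.81 in LSC GFP- cells. Replicate 1 was the lowest array of both populations, and every LSC GFP+ array lay below every LSC GFP- array. The difference was -0.91 ± 0.29 (SE; adjusted p = 0.409). Without LSC GFP- replicate 2 it was -0.81 and not past the threshold, and the dimmer probe, printed above beside the brighter one, gave -0.68 and did not pass.

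Acvr1b (Alk4), the type I receptor for activins, read 1.98, 2.01 and 1.93 in LSC GFP+ cells and 1.41, 1.68 and 1.43 in LSC GFP- cells. The LSC GFP+ arrays were nearly level and above all LSC GFP- arrays. Its difference of 0.47 ± 0.19 (SE; adjusted p = 0.570) was just past the threshold, and the second probe gave 0.29 and did not pass. It was not past the threshold without LSC GFP+ replicate 1 (0.46), 2 (0.45) or 3 (0.49), or without LSC GFP- replicate 1 (0.42) or 3 (0.43).

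Bmpr1a (Alk3), the other BMP type I receptor of this pair, read 2.30, 2.47 and 2.52 in LSC GFP+ cells and 2.12, 1.94 and 2.25 in LSC GFP- cells. The groups were apart by a narrow margin, and the difference of 0.33 ± 0.19 (SE; adjusted p = 0.823) did not pass. Whether Bmpr1a and Bmpr1b differ from each other in their change was not tested. The type II receptor for BMPs, Bmpr2, differed by 0.24 and the type I receptor Acvr1 (Alk2) by 0.38. The activin type II receptors Acvr2a and Acvr2b differed by 0.16 and -0.06, the TGF-beta receptors Tgfbr1 and Tgfbr2 by 0.02 and -0.26, and the co-receptors Tgfbr3 (betaglycan) and Eng (endoglin) by 0.17 and -0.19. None of these 8 passed, and the values of the populations overlapped for each.

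Of the 7 Smads tested, only Smad9 passed. Smad9, also called Smad8, a receptor Smad of the BMP branch, read -5.15, -6.07 and -4.90 in LSC GFP+ cells and -3.77, -3.59 and -3.71 in LSC GFP- cells. The LSC GFP- arrays were nearly level and all 3 stood well above background, whereas none of the LSC GFP+ arrays did. The level in LSC GFP+ cells was therefore not resolved from background. The signals as read were 3.21-fold lower there (limma adjusted p = 0.129), and the size of the fall is uncertain. Normexp gave a difference of -0.40.

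Smad5, of the same branch, read 2.17, 2.37 and 2.0 in LSC GFP+ cells and 1.71, 1.72 and 1.83 in LSC GFP- cells. Its groups did not overlap and the difference was 0.42 ± 0.19 (SE; adjusted p = 0.659), with 0.35 at its second probe. It passed with the replicate number as a block, at an unadjusted limma p of 0.0414. Smad1, the last receptor Smad of the BMP branch, had a difference of -0.01, with a 95% interval from -0.44 to 0.43.

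Smad2 and Smad3, which carry TGF-beta and activin signals, differed by 0.25 and 0.01, and the common partner Smad4 by 0.04. The inhibitory Smad7 differed by 0.26 and was higher in LSC GFP+ cells in each of the 3 pairs, without passing. Smad6, the other inhibitory Smad, was well above background on 1 of 3 LSC GFP+ and 2 of 3 LSC GFP- arrays and was not tested.

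None of the antagonists and binding proteins rose, 3 fell, and 4 of the 12 lacked a signal well above background throughout. Those 4 were Grem1 and Sost, secreted BMP antagonists, Bmper, a BMP-binding protein, and Bambi, a decoy receptor. Fst, follistatin, which binds activins and some BMPs, read -3.78, -4.36 and -4.77 in LSC GFP+ cells and -1.67, -2.62 and -2.68 in LSC GFP- cells. The groups were more than 1 log2 unit apart, LSC GFP- replicate 1 was the highest array, and only 1 of the 3 LSC GFP+ arrays was well above background. The difference was -1.98 ± 0.36 (SE), or 3.94-fold lower, with an adjusted p of 0.126, and -0.79 with normexp.

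Sostdc1, also called ectodin or Wise, a secreted inhibitor of BMPs that also modulates Wnt signalling, read -2.28, -1.99 and -1.26 in LSC GFP+ cells and -0.40, -0.72 and -0.27 in LSC GFP- cells. The groups did not overlap and replicate 3 was the highest of both. The difference was -1.38 ± 0.29 (SE; adjusted p = 0.171). Its second probe, 335 bases away, read -2.56, -2.73 and -2.43 against -1.50, -1.89 and -1.47. It was as cleanly separated and also passed, with -0.95 ± 0.21 (SE; adjusted p = 0.179).

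Fstl1, a secreted follistatin-related protein, read 4.65, 4.99 and 5.25 in LSC GFP+ cells and 5.63, 5.26 and 5.80 in LSC GFP- cells. The highest LSC GFP+ and the lowest LSC GFP- array were almost level. The difference of -0.60 ± 0.24 (SE; adjusted p = 0.580) was just past the threshold. It was no longer past it without LSC GFP+ replicate 1 (-0.44) or 2 (-0.61), without LSC GFP- replicate 1 (-0.57) or 3 (-0.48), or with the array median as the scale (-0.53).

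Nog, noggin, a classical BMP antagonist, did not pass although its groups were apart, with -1.65, -2.13 and -1.94 in LSC GFP+ cells and -1.56, -1.56 and -1.57 in LSC GFP- cells. The LSC GFP- arrays were level, and LSC GFP+ replicate 1 lay just below them. The difference was -0.35 ± 0.20 (SE; adjusted p = 0.813), and without that array it was -0.48 and past the threshold.

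Ltbp1, which tethers latent TGF-beta to the matrix, read 1.23, 1.70 and 1.74 in LSC GFP+ cells and 2.09, 1.83 and 2.17 in LSC GFP- cells. Every LSC GFP+ array was below every LSC GFP- array, and the difference was -0.48 ± 0.22 (SE; adjusted p = 0.684). It passed with the replicate number as a block, at an unadjusted limma p of 0.0494. Ltbp2, a matrix protein of the same family, differed by 0.29, the follistatin-related Fstl3 by 0.34 and the antagonist Chrd by -0.13, and none of them passed.

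The smooth muscle markers and part of the stromal markers were also lower in LSC GFP+ cells. Of 9 smooth muscle markers tested, 8 fell in LSC GFP+ cells, among them Acta2 (-2.13) and Myh11 (-2.01), which encode smooth muscle actin and myosin. The summed linear signal of that list, in units of the 75th percentile of the array, lay between 9.11 and 14.1 in LSC GFP+ cells and between 28.0 and 55.7 in LSC GFP- cells, without overlap, and Lmod1 was never well above background. Of 12 stromal markers tested, 6 fell (Sparcl1, Pdgfra, Col1a1, Col1a2, Col3a1 and Lum, by -2.72 to -1.21) and 2 rose (Dcn, 1.19, and Fbln1, 0.90), and the summed signal, from 29.9 to 36.5 against 30.4 to 80.7, overlapped. Each stromal marker was well above background on at least 1 array. Col1a1, a fibroblast collagen, was highest on LSC GFP- replicate 1, at 2.01. Among the members that fell, the highest array was LSC GFP- replicate 1 for Gdf10, Gdf15 and Fst. It was LSC GFP- replicate 3 for Tgfb3, Fstl1 and Sostdc1, and LSC GFP- replicate 2 for Bmpr1b and Smad9. Some members that did not pass, among them Bmp4 and Inhba, were highest on LSC GFP- replicate 1. Which of 3 arrays is highest is a description only, and no link between a member and a marker was tested. The part of smooth muscle and stromal cells in the differences of Gdf10, Tgfb3, Smad9, Fst, Fstl1, Sostdc1 and the other members that fell was not tested.

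The epithelial markers moved the other way or in both directions. Of 12 basal markers, 8 rose in LSC GFP+ cells, with Dsc3 (2.05), Krt17 (1.40) and Krt14 (1.18) first, and all 12 differences were above 0 at the brightest probes. Some dimmer probes lay below 0 without passing, such as that of Dst (-0.72, against 0.07 at the brighter). The probes of Trp63, which encodes p63, disagreed. The brightest gave 0.11 and did not pass, and the others gave 0.62, which passed, and -0.73, which did not. The summed signal of the basal list lay between 240.0 and 254.8 in LSC GFP+ cells and between 177.2 and 187.1 in LSC GFP- cells, and the part of this shift in the rise of Bmp2, Bmp5, Bmp7 and Acvr1b was not tested. Among the luminal markers, Cldn3 (-0.76) and Prom1 (-0.53) fell. Among endothelial markers 1 of 6 fell at the brightest probes (Vwf, -0.82). For the endothelial marker Kdr the dimmer probe gave -2.34 and passed, while the brighter gave 0.02. None of 9 immune and none of 8 glial and neuronal markers passed. Of the glial and neuronal differences, 7 lay below 0 and 1 above, the lowest being Stmn2 (-2.63) and Prph (-2.19). Lyz2, an immune marker, was never well above background and was not tested, while each of the 9 immune markers tested was above it throughout at least 1 population.

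The other genes of the pathway, from lists set by role, were measured on the same arrays. None of 11 other ligands tested and none of 4 other receptors and co-receptors passed at their brightest probes. For the ligand Gdf7 the dimmer probe gave -1.01 and passed, while the brighter gave -0.16. Of 12 other extracellular regulators, Thbs1 (1.34), a thrombospondin that activates latent TGF-beta, and Itgb8 (0.62), a subunit of an integrin that does the same, rose, and Chrdl1 (-0.88), a BMP antagonist, fell. Thbs1 read 1.90, 1.78 and 1.20 in LSC GFP+ cells and 0.68, -0.10 and 0.30 in LSC GFP- cells, without overlap.

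Of 16 intracellular regulators, 3 rose and 1 fell, and 13 differences were above 0. Those that rose were Tgif2 (0.89) and Skil (0.68), nuclear corepressors of Smads, and Smurf2 (0.43), a ubiquitin ligase that targets Smads and receptors. Nedd4l (-0.94), another ubiquitin ligase of Smads, fell. Tgif2 read 3.27, 3.58 and 3.27 in LSC GFP+ cells and 2.40, 2.59 and 2.48 in LSC GFP- cells, and both groups were tight.

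Among the target genes, several rose and 1 fell. Hey1 (1.14), a transcriptional repressor also driven by Notch, Snai2 (0.88), a zinc finger repressor, and Junb (0.56), an AP-1 subunit, rose. Tgfbi, a TGF-beta-induced matrix protein, read -3.01, -3.09 and -2.93 in LSC GFP+ cells and 0.10, -1.26 and -0.36 in LSC GFP- cells. The LSC GFP+ arrays were level, LSC GFP- replicate 1 was the highest, and the difference was -2.50 ± 0.34 (SE; adjusted p = 0.0790). The Id genes, best known as direct BMP targets and named here after their values were seen, did not pass, with differences of 0.31 for Id1, 0.17 for Id2, 0.12 for Id3 and -0.33 for Id4.

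**Figure D3:**
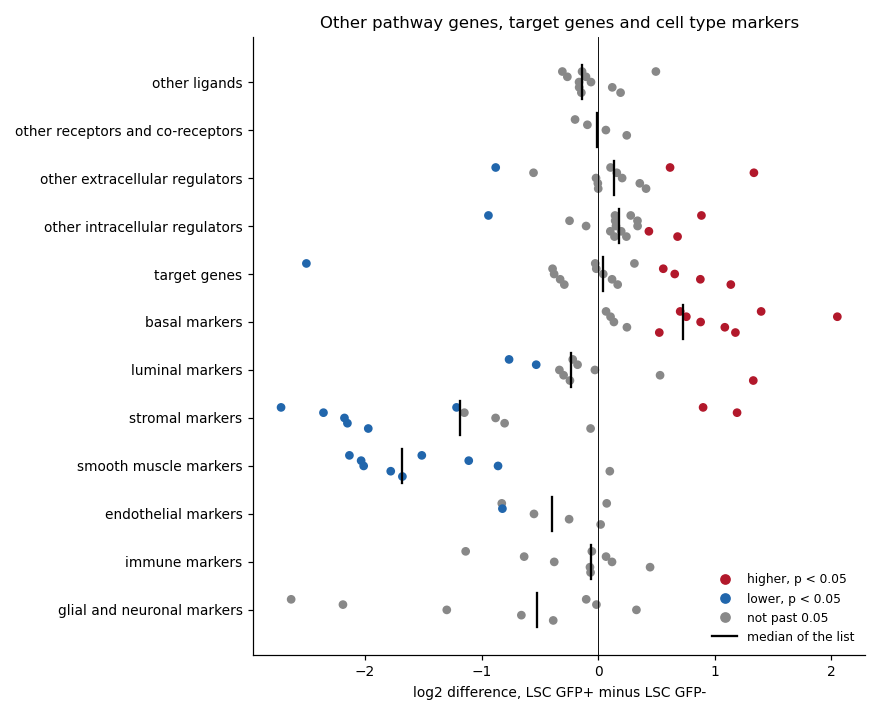
Log2 difference between LSC GFP+ and LSC GFP- cells (horizontal axis) for each tested gene of the other pathway lists and the cell type markers; 1 point is 1 gene at its brightest probe and black lines are the medians of the lists. All 12 basal markers lie above 0 and 8 of 9 smooth muscle markers below it.

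The members also differed in how much of their spread lay between samples with different replicate numbers. For each member the sum of squares over the 6 arrays was divided into the part between populations, the part between replicate numbers and the rest. The median over the 43 members was 45.1% between populations and 36.9% between replicate numbers, and in 19 of 43 (44.2%) the replicate number held the larger part. Over all 25566 genes tested the medians were 11.3% and 60.0%, and the replicate number held the larger part in 77.7%. A larger part between replicate numbers was the usual pattern on these arrays. That part compares more groups than the part between populations, and the shares were not scaled for this. It therefore tends to be the larger part even where neither has an effect. These shares are descriptions and were not tested.

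Bmp6, with 85.3% between replicate numbers and 1.07% between populations, read -1.64, -1.24 and -2.68 in LSC GFP+ cells and -1.28, -1.95 and -2.70 in LSC GFP- cells. Replicate 3 was the lowest of both populations, by over 0.7 log2 units. Tgfb1, with 86.6% between replicate numbers, read -2.04, -3.16 and -3.18 against -2.39, -3.64 and -2.86, and there replicate 1 was the highest of both. Gdf11 (87.0%) was also highest in replicate 1 of both populations, and Inhbb (86.3%) lowest in replicate 3 of both.

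Smad1 and Tgfbr1 had the highest shares between replicate numbers, 94.0% and 93.3%, within small ranges of 0.29 and 0.59 log2 units over the 6 arrays. By contrast, Bmp5 had 94.3% of its sum of squares between populations, Acvr1b 86.5% and Gdf15 86.1%.

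**Figure D4:**
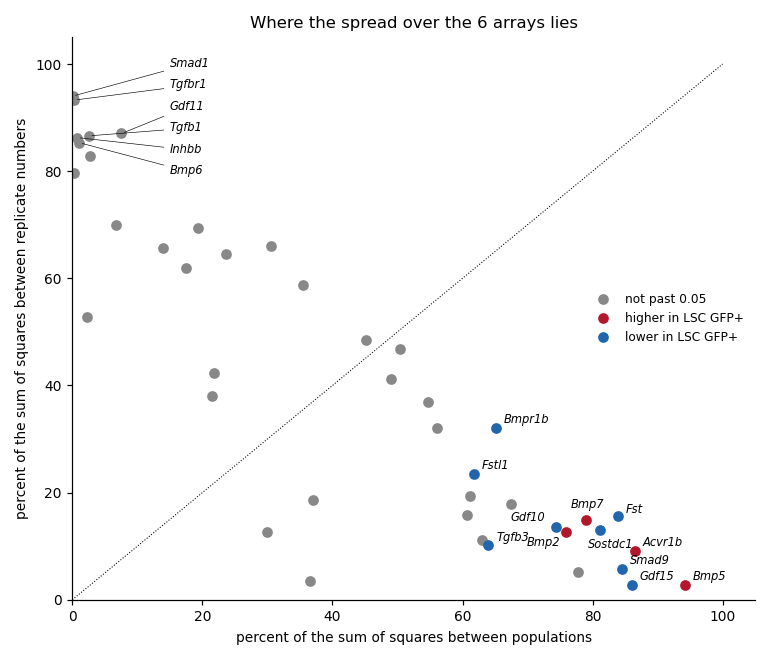
Share of the sum of squares over the 6 arrays that lay between populations (horizontal axis, percent) and between replicate numbers (vertical axis, percent) for the 43 tested members; the dotted line marks equal shares. The shares are not scaled for the number of groups compared. The 12 members past the threshold, which were chosen by their difference between populations, lie below the line, and Smad1, Tgfbr1, Gdf11, Tgfb1, Inhbb and Bmp6 lie at the upper left.

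Several members could be read at more than 1 probe. Of 12 members with several tested probes, 11 had the same sign at each, and Tgfbr1, near 0 at both (-0.08 and 0.02), was the exception. Both probes of Sostdc1 passed, 1 of 2 passed for Bmpr1b and Acvr1b, and none passed for the other members with several probes. For Acvr2a the dimmer probe gave 0.59 and the brighter 0.16, and for Smad3 the values were 0.30 and 0.01, neither past the threshold.

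Over the whole array, the scanner software placed between 36687 and 42170 of the 55681 probes well above background, and saturation was not seen. Across probes, which are no independent replicates, Pearson's r for a pair of arrays ranged from 0.960 to 0.984. All 6 arrays were on the same slide and in the same scan.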

How the data were processed

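Single-colour Agilent arrays of 3 LSC GFP+ and 3 LSC GFP- samples were used, and the labels gave group and replicate number. The deposited intensity values were made by the authors with Feature Extraction (11.0.1.1 per the file headers, 10.7.3.1 per the labels): linear, background-subtracted, detrended, not normalized between arrays. The deposited table of the whole series held the same intensity values within 0.5% and served as an alternative.

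From the log2 of each intensity the 75th percentile of its array was subtracted. Outlier spots (123 to 154 per array) were left out, and the spots of a probe were averaged. The 37030 probes well above background on each array of 1 or both populations entered a two-sided limma fit (version 3.58.1, lmFit and eBayes, under R 4.3.3) that had been tested on simulated data. Benjamini-Hochberg adjustment ran over every probe in the fit. A gene stands by its brightest tested probe. Where a population had no array above background for a probe, the fold was taken against the higher of the array's lowest signal well above background and the probe's own signal. For Smad9 the probe's own signal was the higher, so its fold is that of the signals as read and not a lower bound. Precision is limited by the number of arrays: an exact permutation test of 3 against 3 cannot give a p under 0.1. The methods name Student's t-test at an unadjusted threshold and no array scaling, and the methods' t-test was run as an alternative.

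Samples sharing a replicate number deviated together from the population means across probes (r of 0.43, 0.27 and 0.66), and a blocked fit on that number served as an alternative to the unpaired fit, which gave all other values. The only source of the pairing is the numbering in the labels, and LSC GFP+ replicate 1 with LSC GFP- replicate 2 also reached 0.22.

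The members and the lists of other pathway genes, targets and cell type markers were chosen with earlier results of these data known. All members are named, with values on every array for those past the threshold or without overlap between populations; other listed genes are named when they passed or define a cell type, except a few that are not reported here. Bmp4, Bmp6, Tgfb1 and Inhba were shown by array after their values were seen. Promoter sequences are RefSeq's for GRCm38.p6, and probe positions are those of the design for mm9.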

Additional observations from a re-analysis of the deposited data

How the results depend on the processing

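The results were recomputed under 19 alternatives. Of the 12 members past the threshold, 8 remained past it wherever they were tested, and Tgfb3 and Fstl1 (each lost under 8), Acvr1b (7) and Bmpr1b (3) did not. Among those 8, Bmp5, Smad9 and Fst could not be tested in the alternative with only probes above background on all 6 arrays. None of the 12 changed direction. Between 3 and 6 members rose and between 5 and 10 fell, where the lowest count of members that fell, 5, came from the methods' t-test, which lost Tgfb3, Bmpr1b and Fstl1. With 1 array left out, 3 to 4 rose and 6 to 8 fell. With the replicate number as a block, 5 rose and 10 fell, in a fit that called 14.2% of all genes tested against 7.67% without the block: Bmp4, Smad5 and Ltbp1 were added, and the pairing changed no other call among the members. Smad5 and Ltbp1 also passed with normexp and with an intensity trend, Smad5 with the methods' t-test and Ltbp1 with quantile normalization. Bmpr1a passed only with the methods' t-test.

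Directions turned only in members near 0 that never passed: Bmp6 (-0.022) and Smad1 (0.022) with normexp, Tgfbr1 (-0.029), Smad3 (-0.0013) and Smad4 (-0.016) with quantile normalization, Smad1 (0.064) and Acvr2b (0.0061) with the array median as the scale, and Tgfbr1 with the mean of its probes (-0.026) or its probe with the smallest p (-0.076). With 1 array left out, the values ranged from -0.21 to 0.46 for Tgfb1, -0.24 to 0.54 for Bmp6, -0.41 to 0.25 for Inhbb, -0.091 to 0.21 for Tgfbr1, -0.25 to 0.10 for Acvr2b, -0.060 to 0.084 for Smad1, -0.092 to 0.13 for Smad3 and -0.022 to 0.14 for Smad4. The causes were not tested. Signal over background limits Bmp5, Smad9 and Fst, the sizes of which depend most on the background correction.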
